A study of Homo sapiens with 26 samples.

Results

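The baseline expression programs of 3 esophageal squamous cell carcinoma (ESCC) lines, KYSE180, TE6 and KYSE150, were compared in the libraries treated with a control siRNA (siCont) alone. These were 9 of the 26 RNA-seq libraries of the series, chosen by their label and not by any value. KYSE180 was present in 2 separate sets, 3 siCont libraries from the experiment in which BRDT was knocked down and 2 from the experiment in which TP63 was knocked down. TE6 and KYSE150 each had 2 siCont libraries. Cells of these siCont libraries were collected 48 h after transfection. KYSE180 and TE6 were grown with 10% serum but KYSE150 with 5%, so the line and its medium cannot be told apart. In addition, 3 KYSE150 libraries labelled cont, the control of a BRDT overexpression experiment (BRDT-OE, 3 libraries), gave a second control set of that line. Per the study's supplement, overexpression for RNA-seq was done by electroporation, and a control vector is listed. The labels give no collection time for the cont and BRDT-OE libraries. Each line is an established culture and stands for 1 tumor, and nothing in the labels says that the libraries of a set came from separate cultures. The study lists 1 non-targeting control siRNA of 19 bases, printed here because it defines the state compared, with no capitals since no part of it is singled out.
Non-targeting siRNA: ugguuuacaugucgacuaa

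Squamous epithelium is built from a basal layer that expresses the transcription factor p63 (TP63) with keratins 5 and 14, and from suprabasal layers that exchange these for other keratins and for cornification proteins. SOX2 and TP63 lie on the long arm of chromosome 3, act together on squamous enhancers and are known lineage factors of ESCC. Simple epithelia express keratins 8, 18 and 19 instead, and BRDT is a bromodomain protein of the BET family whose normal expression is restricted to male germ cells.

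The 5 tables of the series were normalised separately, so levels were expressed as reads of a gene scaled to a column total of 1000000 (RPM) and differences on the log2(RPM + 1) scale, which understates changes of low genes. Sequencing depth was 9093264 to 16134477 reads per siCont library, and 3 reads, the limit that a count of 0 allows by counting error alone, equalled 0.186 to 0.33 RPM. A gene was called apart between 2 lines when the difference was at least 1, exceeded the gap of that gene between the 2 KYSE180 sets, and no library of one line overlapped the other. No test was made between lines, since no line pair shares a table. In bulk libraries, fewer expressing cells and less RNA per cell cannot be told apart. Of 26485 gene symbols, 13307 had a mean of at least 1 RPM over the 3 lines and were compared.

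The yardstick itself was wide. The KYSE180 sets differed by a median of 0.76, and 5039 genes (37.9%) differed by at least 1, although libraries within a set correlated at 0.992 to 0.997. Correlations between the sets of this one line (0.874 to 0.90) were only slightly above those of KYSE180 with TE6 (0.842 to 0.857). The gap moved with transcript length. In 4 equal groups of genes from the shortest to the longest transcripts, the median of the BRDT experiment minus the TP63 experiment was -0.39, 0.30, 0.76 and 1.23. In KYSE150, siCont minus cont ran the other way, with medians of 0.14, -0.29, -0.59 and -0.93, and 26.8% of genes differed by at least 1. The part of transcript length in the gene calls below was not tested beyond removing each library's trend on length and GC content, after which 28.4% of genes still had a KYSE180 gap of at least 1. The same call rule applied to the 2 KYSE150 control sets called 1.1% of genes higher and 8.57% lower in siCont than in cont (1287 genes), and 2433 genes without KYSE150 siCont replicate 2. These 2 sets differ in treatment as well as in table, which cannot be told apart.

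**Figure D1:**
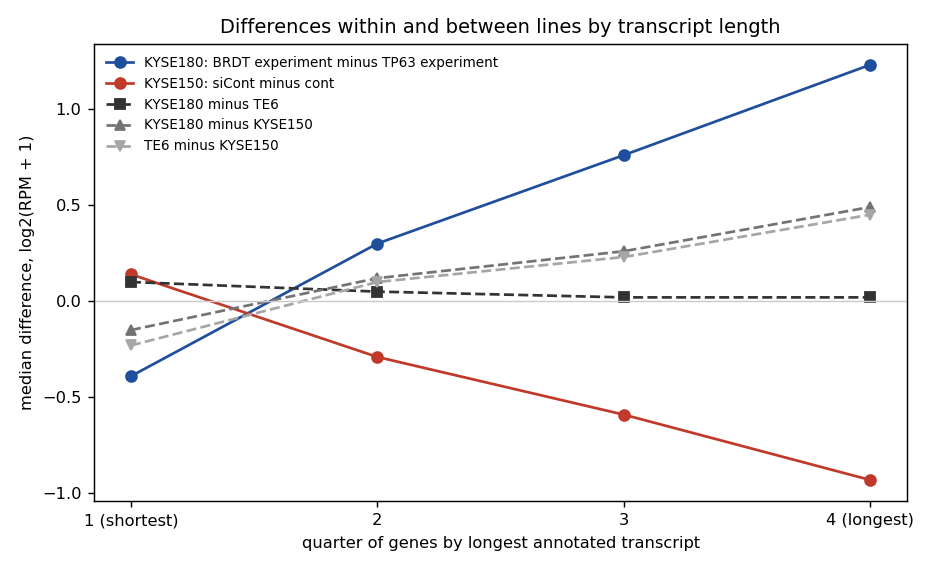
Median difference on the log2(RPM + 1) scale (y axis) for 4 equal groups of genes by longest annotated transcript (x axis), with solid lines for 2 control sets of the same line and dashed lines for pairs of lines. The 2 sets of KYSE180 go from -0.39 to 1.23 and the 2 sets of KYSE150 from 0.14 to -0.93. Both pairs with KYSE150 also move with length, KYSE180 minus KYSE150 from -0.15 to 0.49 and TE6 minus KYSE150 from -0.23 to 0.45. KYSE180 minus TE6 stays between 0.02 and 0.10.

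Each pair with KYSE150 had more calls (3688 with KYSE180 and 4361 with TE6) than the pair of KYSE180 and TE6 (2453). Of all genes, 10.3% were called higher and 8.15% lower in KYSE180 than in TE6. Against KYSE150, 18.5% were higher and 9.18% lower in KYSE180, and 19.1% were higher and 13.6% lower in TE6. Genes called in the same direction against both other lines are named here high or low in that line. KYSE180 had 670 high (5.03%) and 179 low genes (1.35%), TE6 had 739 high (5.55%) and 527 low genes (3.96%), and KYSE150 had 843 high (6.34%) and 1562 low genes (11.7%). The balance of directions for KYSE150 depended on its table: genes above KYSE150 made up 66.9% of the calls with KYSE180 and 58.4% with TE6, but 46.8% and 41.9% when KYSE150 was taken from cont, and 75.3% and 69.2% after scaling to equal upper quartiles. The medians over all genes were 0.19 and 0.15 above KYSE150, -0.22 and -0.28 with cont, and 0.28 and 0.27 with equal upper quartiles.

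Among 350 genes in 18 lists of lineage and tumor programs, 266 passed the filter. Of these, 73 (27.4%) were low and 27 (10.2%) high in KYSE150, 41 (15.4%) were high and 16 (6.02%) low in TE6, and 23 (8.65%) were high and 5 (1.88%) low in KYSE180. The median listed gene was 0.81 higher in KYSE180 and in TE6 than in KYSE150. Taking away every call that any of 18 alternatives ended left 52 of 100 listed genes above KYSE150 in KYSE180 and 70 of 110 in TE6.

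**Figure D2:**
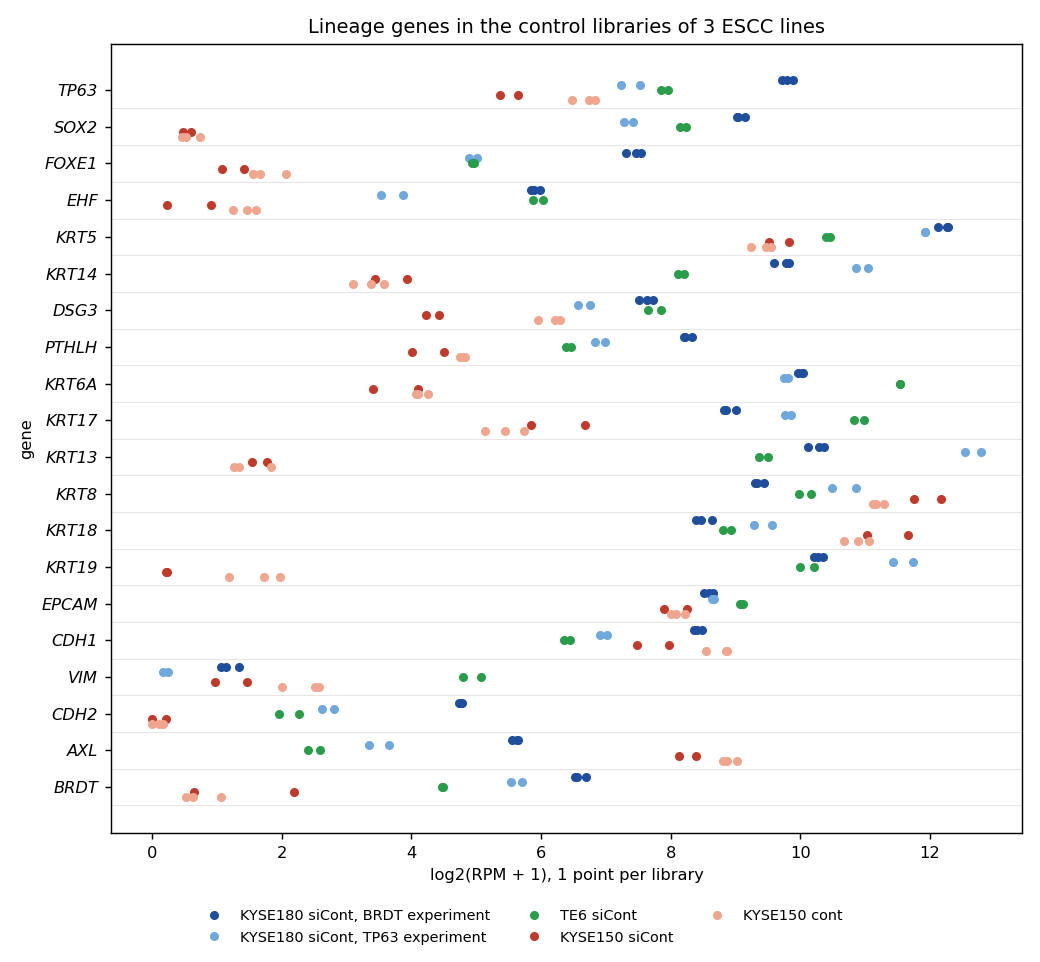
Levels of 20 lineage genes on the log2(RPM + 1) scale (x axis), with 1 point per control library and 1 color per set. KYSE150 siCont libraries sit near 0 for SOX2 and KRT19 and at the high end for KRT8, KRT18 and AXL, and the 2 KYSE180 sets are apart from each other by 2.43 for TP63.

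Of the 22 squamous transcription factors, 9 (40.9%) were low in KYSE150 and 2 (9.09%) high in TE6, beside 11.7% and 5.55% of all genes. None was called higher in KYSE180 than in TE6, beside 10.3% of all genes. SOX2 (chr3:181711925-181714436 in hg38, plus strand) had 520, 526 and 569 RPM in KYSE180 of the BRDT experiment, 170 and 154 RPM in KYSE180 of the TP63 experiment, 281 and 302 RPM in TE6, and 0.519 and 0.398 RPM in KYSE150. KYSE150 cont was at 0.67, 0.383 and 0.433 RPM, so both control sets of KYSE150 were below 1 RPM for this factor. KYSE180 and TE6 exceeded KYSE150 by 7.67 and 7.65, against a KYSE180 gap of 1.72. FOXE1, a forkhead factor, had 158, 176 and 185 RPM and 31.2 and 28.6 RPM in the KYSE180 sets, 29.6 and 30.1 RPM in TE6 and 1.12 and 1.67 RPM in KYSE150. EHF, an epithelial ETS factor, was at 0.173 and 0.875 RPM in KYSE150 and at 57.7 and 64.7 RPM in TE6. GRHL3, a factor of barrier formation, was highest in TE6 at 22.4 and 19.5 RPM, with 3.45 to 5.18 RPM in KYSE180 and 0.173 and 0.239 RPM in KYSE150. Its level in KYSE150 cont, 1.66 to 2.38 RPM, ended the call against KYSE180.

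TP63 (chr3:189631389-189897276, plus strand) showed how far the yardstick limits a comparison. It had 844, 889 and 942 RPM in KYSE180 of the BRDT experiment but only 149 and 183 RPM in KYSE180 of the TP63 experiment. TE6 had 229 and 248 RPM, between the 2 KYSE180 sets, and the lines were not called apart (difference 0.69, gap 2.43). KYSE150 had 40.5 and 49.3 RPM, lower than every other siCont library. The difference of 2.39 between TE6 and KYSE150 fell just short of the gap, and the call between KYSE180 and KYSE150 (3.08) was lost with the KYSE180 libraries of the TP63 experiment alone and with KYSE150 cont (88.5 to 113 RPM). FAT2, an atypical cadherin, spanned 21.4 to 292 RPM among KYSE180 libraries, and EGFR, the receptor of epidermal growth factor, 78.2 to 621 RPM. Neither gene was called between any lines.

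Of the 22 basal squamous genes, 7 (31.8%) were low in KYSE150 and 5 (22.7%) high in KYSE180, beside 11.7% and 5.03% of all genes. KRT5, the main type II keratin of basal cells, had 4983, 4903 and 4447 RPM and 3886 and 3902 RPM in the KYSE180 sets, 1413 and 1347 RPM in TE6 and 730 and 907 RPM in KYSE150. KYSE180 exceeded TE6 by 1.64 and KYSE150 by 2.40, with a gap of 0.29, and TE6 and KYSE150 were not called apart. KRT14, its type I partner, fell off more steeply. KRT14 had 908, 880 and 769 RPM and 2124 and 1856 RPM in KYSE180, 293 and 277 RPM in TE6 and 14.2 and 9.87 RPM in KYSE150, with all 3 pairs called in this order. DSG3, a desmosomal cadherin, had 17.8 and 20.5 RPM in KYSE150 and 93.9 to 229 RPM in the other lines, but KYSE150 cont reached 61.0 to 77.3 RPM and ended the call against KYSE180. PTHLH, parathyroid hormone-like hormone, was at 15.1 and 21.6 RPM in KYSE150, 82.6 and 87.2 RPM in TE6 and 113 to 321 RPM in KYSE180. PDPN, podoplanin, differed between all lines with a KYSE180 gap of only 0.16. PDPN had 124 to 148 RPM in KYSE180, 22.0 and 22.2 RPM in KYSE150, and 0 and 0.153 RPM in TE6. NGFR, the low-affinity nerve growth factor receptor of basal cells, was instead highest in TE6 at 65.2 and 65.3 RPM, with 3.0 to 13.5 RPM in KYSE180 and 4.15 and 2.79 RPM in KYSE150.

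The stress keratins, which are induced in wounded and tumor epithelium, were highest in TE6. Of 5, 3 (60%) were high in TE6 and 4 (80%) low in KYSE150, beside 5.55% and 11.7% of all genes. KRT6A had 2971 and 2982 RPM in TE6, 857 to 1052 RPM in KYSE180 and 9.6 and 16.2 RPM in KYSE150. KRT17 had 2020 and 1820 RPM in TE6, 450 to 931 RPM in KYSE180 and 102 and 56.7 RPM in KYSE150. KYSE180 minus TE6 was -1.64 for KRT6A and -1.55 for KRT17, beyond the gaps of these genes but not beyond the 95th percentile of all gaps (2.18). KRT6B reached 7.69 and 7.89 RPM in TE6, while KRT6C was at 0 reads in both KYSE150 libraries and at least 42-fold higher in TE6, measured against 3 reads per library. KRT6A, KRT6B and KRT6C, and likewise KRT14, KRT16 and KRT17, have near-identical stretches, so reads may have been split among them.

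Relative to transcript length, keratins made up different mixtures in the 3 lines. Over 56 keratin genes, KRT5 contributed 39.2% and 16.3% of summed keratin RPM per kb in the 2 KYSE180 sets, and KRT13, a keratin of the suprabasal esophagus, 12.3% and 33.1%. In TE6 the leading keratins were KRT6A (23.1%), KRT17 (18.7%) and KRT19 (14.1%). In KYSE150, KRT8 and KRT18, the pair of simple epithelia, made up 43.2% and 38.6%, and 37.7% and 41.3% in KYSE150 cont. KRT18 had 3236 and 2091 RPM in KYSE150 siCont, against 334 to 759 RPM in KYSE180 and 486 and 446 RPM in TE6. KRT8 had 4638 and 3439 RPM in KYSE150, but its call was lost against KYSE180 and TE6 with cont (2228 to 2517 RPM). The other simple keratin, KRT19, went the opposite way. KRT19 (chr17:41523617-41528308, minus strand) had 1312, 1242 and 1188 RPM and 3406 and 2759 RPM in KYSE180, 1183 and 1018 RPM in TE6, but 0.173 and 0.159 RPM in KYSE150 and 1.28 to 2.92 RPM in KYSE150 cont. It was the gene with the largest distance among those low in KYSE150. KRT7, which marks glandular epithelium, was low everywhere at 4.26 to 20.4 RPM and was not called.

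**Figure D3:**
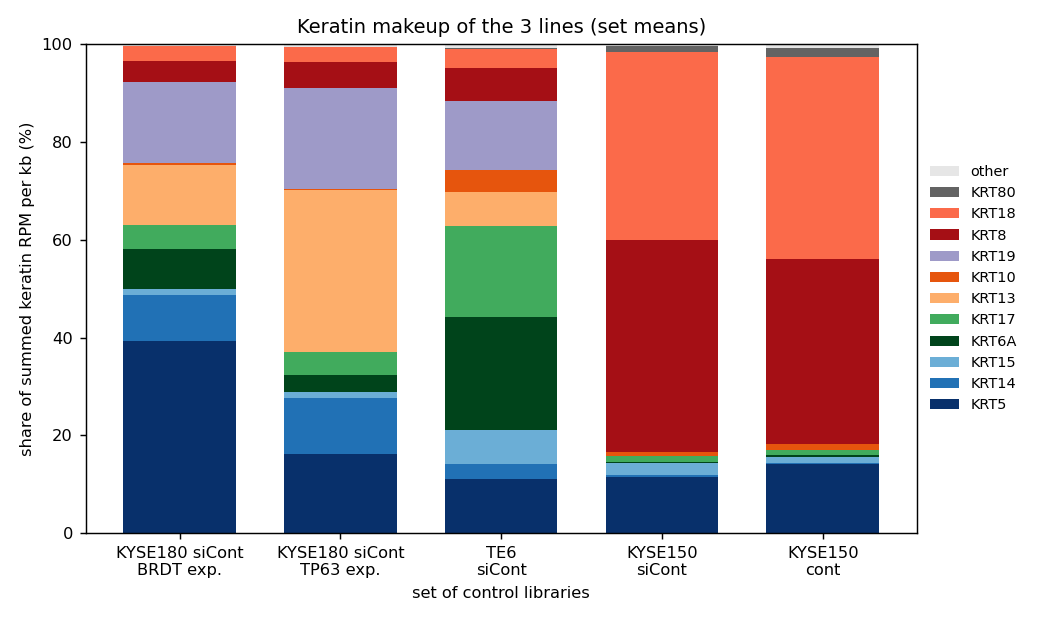
Share of summed keratin RPM per kb (y axis, %) for the 11 keratins that reach at least 1% in a set, as means of each set of control libraries (x axis). KRT5 takes 39.2% and 16.3% in the KYSE180 sets, KRT6A 23.1% in TE6, and KRT8 43.2% in KYSE150 siCont.

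Of 42 suprabasal and cornified genes, 20 passed the filter, and 8 had no more than 3 reads in each of the 9 libraries. Among the 20, 5 (25%) were low and 3 (15%) high in KYSE150, beside 11.7% and 6.34% of all genes. IVL, involucrin, an early component of the cornified envelope, stayed at or below 0.273 RPM. KRT13 had 1107 to 1325 RPM and 5946 and 7078 RPM in the KYSE180 sets, 661 and 728 RPM in TE6 and 1.91 and 2.42 RPM in KYSE150. KRT4, its partner in the esophagus, was low but parallel, at 17.1 to 60.6 RPM in KYSE180, 25.0 and 20.6 RPM in TE6 and 0.259 and 0 RPM in KYSE150. CALML3, a calmodulin-like protein of keratinocytes, had 35.7 to 46.3 RPM in KYSE180 and at most 0.388 RPM in the other lines. KLK5, a skin protease that acts on desmosomes, had 303 and 239 RPM in KYSE150 and no more than 0.372 RPM in the other lines.

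Of 24 simple epithelial and glandular genes, 13 passed the filter. Among these, 5 (38.5%) were low in KYSE150 and 4 (30.8%) high in TE6, beside 11.7% and 5.55% of all genes. AGR2, a secretory-pathway disulfide isomerase, had 265 and 262 RPM in TE6, 17.4 to 63.9 RPM in KYSE180 and 0.432 and 0.318 RPM in KYSE150. FOXA1, a pioneer factor of endoderm, had 60.9 and 59.1 RPM in TE6, 8.18 to 20.2 RPM in KYSE180 and 1.64 and 1.59 RPM in KYSE150. KYSE150 cont had 5.42 to 7.21 RPM of FOXA1, which ended the call against KYSE180. CDX2, the intestinal homeobox factor, had 18.8 to 22.2 RPM in KYSE180 and 4.97 and 4.37 RPM in TE6, and no read in KYSE150 siCont or cont.

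Calls among epithelial junction genes went both ways. Of 20 of them, 3 (15%) were low and 4 (20%) high in KYSE150, beside 11.7% and 6.34% of all genes. EPCAM had 366 to 408 RPM in KYSE180, 552 and 539 RPM in TE6 and 237 and 305 RPM in KYSE150, and only the pair TE6 and KYSE150 was called, at 1.02 and not after TMM scaling. CDH1, E-cadherin, overlapped between KYSE180 (119 to 356 RPM) and KYSE150 (177 and 250 RPM), and was at 80.5 and 86.0 RPM in TE6, a difference within the KYSE180 gap of 1.45. CLDN1, claudin 1, had 0 and 0.0796 RPM in KYSE150 and 9.48 and 12.8 RPM in TE6. PRSS8, a membrane protease, and ESRP1, an epithelial splicing factor, were lower in KYSE150 than in TE6 by 1.96 and 1.99, the second not with KYSE150 cont.

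Mesenchymal genes were spread over the 3 lines. Of 34, 26 passed the filter, and in 19 the KYSE180 gap was at least 1. Among the 26, 7 (26.9%) were low and 3 (11.5%) high in KYSE150, beside 11.7% and 6.34% of all genes. AXL, a receptor tyrosine kinase, had 280 and 335 RPM in KYSE150, 9.18 to 49.2 RPM in KYSE180 and 5.05 and 4.29 RPM in TE6. FN1, fibronectin, had 47.0 and 59.5 RPM in KYSE150 and no more than 9.02 RPM elsewhere. VIM, vimentin, was seen in TE6 at 32.8 and 26.7 RPM, but in KYSE150 at 0.951 and 1.75 RPM and in KYSE180 at 0.124 to 1.52 RPM. CDH2, N-cadherin, was highest in KYSE180, at 25.5 to 26.4 RPM and 5.14 and 6.0 RPM in its 2 sets, and differed from KYSE150 (0 and 0.159 RPM) but not from TE6 beyond the gap. COL5A2, a fibrillar collagen chain, had 91.9 to 166 RPM in KYSE180, 86.7 and 89.9 RPM in TE6 and 0.259 and 0.716 RPM in KYSE150, while COL5A1 was high in KYSE180 (11.8 to 45.3 RPM, at most 1.38 RPM in TE6). TWIST2 had 18.8 to 21.4 RPM in KYSE180, 11.7 and 11.4 RPM in TE6 and no read in KYSE150. ZEB1, a repressor of E-cadherin, stayed at or below 0.689 RPM in every siCont library.

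Of 18 extracellular proteases and inhibitors, 14 passed the filter, and 3 were high in each line (21.4%, beside 5.03% to 6.34% of all genes). MMP10, a stromelysin, was a KYSE180 gene (31.4 to 95 RPM, at most 0.932 RPM elsewhere). MMP14, a membrane-bound collagen protease, had 129 to 144 RPM in KYSE180 and 173 RPM in both KYSE150 libraries, but 3.26 and 2.99 RPM in TE6. TIMP3, a metalloprotease inhibitor, and SERPINB13, a squamous serpin, were high in TE6, at 26.5 and 25.3 RPM and at 66.9 and 71.7 RPM.

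BRDT (chr1:91949343-92014426, plus strand) followed the order KYSE180, TE6, KYSE150. The study had picked KYSE180 and TE6 as BRDT-positive and KYSE150 as BRDT-negative from public expression data. A low level in KYSE150 was therefore fixed by the choice of lines. It had 91.3, 93.3 and 103 RPM in KYSE180 of the BRDT experiment, 45.6 and 51.3 RPM in KYSE180 of the TP63 experiment, 21.3 and 21.5 RPM in TE6, and 3.55 and 0.557 RPM in KYSE150. No libraries of different lines overlapped, and the differences were 1.63 for KYSE180 over TE6, 4.70 for KYSE180 over KYSE150 and 3.07 for TE6 over KYSE150, with a gap of 0.97. The first of these did not pass the 95th percentile of all gaps. KYSE150 cont had 0.433 to 1.08 RPM, at or below the lower siCont library in 2 of 3. BRD2, a ubiquitous BET protein, was called only in TE6 over KYSE150 (1.55), and not with cont (219 to 293 RPM). BRD3 had 84.8 to 92.0 RPM in one KYSE180 set, 31.4 and 33.4 RPM in the other, 15.4 and 17.2 RPM in TE6 and 17.4 and 20.7 RPM in KYSE150.

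Other cancer-testis genes, which are silent in most adult tissues outside the germ line, formed a different set in each line. Of 31, 11 passed the filter and 18 had no more than 3 reads in each library. CTAG2 was seen in KYSE180 alone, at 59.1, 61.4 and 63.5 RPM and 176 and 159 RPM, and had no read in TE6 or KYSE150, which makes it at least 228-fold higher in KYSE180 than the limit in those lines. MAGEB2 was led by TE6 at 139 and 129 RPM, with 4.32 and 5.01 RPM in KYSE150 and at most 0.22 RPM in KYSE180. MAGEA3 had no read in TE6, 55.5 to 70.9 RPM in KYSE180 and 124 and 159 RPM in KYSE150. MAGEA1 and PRAME were also seen in KYSE180, but with TE6 and KYSE150 exchanged. MAGEA1 had 101 to 116 RPM in KYSE180 and 142 and 152 RPM in TE6, but 0 and 0.0796 RPM in KYSE150, and PRAME had 60.7 to 100 RPM, 122 and 118 RPM, and 0.0865 and 0 RPM. The order of these genes was thus not that of BRDT. MAGEA3 and CTAG2 have near-identical copies, and reads of the copies may have been lost or split.

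The locus of the cell-cycle inhibitors CDKN2A and CDKN2B on chromosome 9 was read in 1 line and nearly or fully silent in the others. CDKN2A (chr9:21967752-21995301, minus strand), which encodes p16 and p14ARF, had 311 and 234 RPM in KYSE150, no read in TE6 and at most 2 reads in any KYSE180 library. CDKN2A was at least 1002-fold higher in KYSE150 than the limit in TE6. CDKN2B (chr9:22002903-22009305) had 10 to 12.7 RPM in KYSE150 and no read in the other lines. Its neighbor MTAP (chr9:21802636-21937651), an enzyme of the methionine salvage pathway, had 41.6 to 44.3 RPM and 21.8 to 23.7 RPM in the KYSE180 sets and 28.9 to 38.5 RPM in KYSE150, but no read in TE6. In TE6, IFNE on one side and DMRTA1 on the other were also at 0 reads, both low genes with at most 27 and 40 reads in a KYSE180 library. Farther out, KLHL9 had 26.2 to 27.6 RPM and FOCAD 60.7 to 64.9 RPM in TE6. The genes at 0 in TE6 were neighbors from IFNE to DMRTA1, and those near 0 in KYSE180 were CDKN2A and CDKN2B, between an expressed MTAP and a weakly expressed DMRTA1, and ELAVL2 beyond DMRTA1 (at most 1 read in KYSE180, 11 to 17.2 RPM in KYSE150). DNA was not measured.

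**Figure D4:**
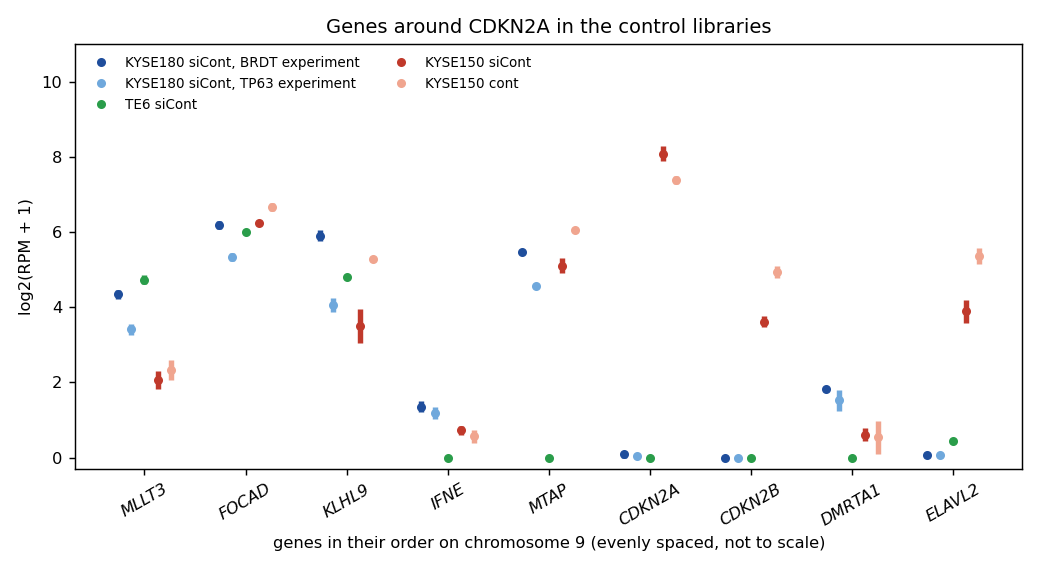
Levels on the log2(RPM + 1) scale (y axis) of the genes within 2 Mb of CDKN2A that reach 1 RPM in a library, in their order on chromosome 9 (x axis, evenly spaced). Bars span the lowest to the highest library of each set and points mark the middle of that range; TE6 is at 0 from IFNE to DMRTA1, and CDKN2A reaches 234 to 311 RPM in KYSE150 siCont.

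D-type cyclins also differed. CCND1, cyclin D1, had 996 to 1063 RPM and 429 and 562 RPM in the KYSE180 sets, 831 and 817 RPM in TE6, and 263 and 266 RPM in KYSE150. CCND2 had 359 and 375 RPM in KYSE150 and at most 1.15 RPM in the other lines. ANO1, a chloride channel gene near CCND1 on 11q13, was seen in KYSE180 (11 to 34.6 RPM) and was at most 0.544 RPM elsewhere. Calls among 20 proliferation genes were mostly rarer than over all genes. In KYSE180, 1 (5%) was higher and none lower than in TE6, beside 10.3% and 8.15% of all genes. Against KYSE150, 1 (5%) was higher and 1 (5%) lower in KYSE180, beside 18.5% and 9.18%. In TE6, 1 (5%) was higher and 3 (15%) lower than in KYSE150, beside 19.1% and 13.6%. None was high or low in KYSE180, and none was low in KYSE150, beside 11.7% of all genes. Among the 20, 1 (5%) was high in KYSE150 and 1 (5%) low in TE6, beside 6.34% and 3.96% of all genes. MCM3 was the former, at 829 and 1060 RPM against 306 to 406 RPM, and MCM7 the latter, at 318 and 322 RPM against 843 to 1293 RPM, and both encode subunits of the replicative helicase. MCM2, another subunit, was called for KYSE180 over KYSE150 alone (1.30). TOP2A, a topoisomerase of dividing cells, was called for TE6 over KYSE150 (1.66), but not with cont or without KYSE150 siCont replicate 1. The calls of MCM2, MCM3, MCM7 and TOP2A did not pass the 95th percentile of all gaps.

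Targets of NRF2, the factor that turns on detoxifying enzymes, were one-sided against KYSE150. All 24 passed the filter. Of these, 16 (66.7%) were higher in TE6 and 11 (45.8%) in KYSE180 than in KYSE150, beside 19.1% and 18.5% of all genes. None was lower, beside 13.6% and 9.18%. The medians were 2.05 and 0.94, beside 0.15 and 0.19 over all genes. The aldo-keto reductases carried the largest differences. AKR1C1 (chr10:4963253-4983283, plus strand) had 698 to 756 RPM and 2049 and 2198 RPM in the KYSE180 sets, 2717 and 2766 RPM in TE6, and 0.865 and 0.637 RPM in KYSE150. AKR1C3 had 1148 and 1188 RPM in TE6, 253 to 512 RPM in KYSE180 and 0.259 and 0.0796 RPM in KYSE150. AKR1B10 had 2006 and 2080 RPM in TE6, 151 to 421 RPM in KYSE180 and 2.08 and 1.67 RPM in KYSE150. GPX2, a glutathione peroxidase of epithelia, had 1239 and 1325 RPM in TE6, 425 to 1420 RPM in KYSE180 and 1.12 and 0.796 RPM in KYSE150. NQO1, a quinone reductase often used as the marker of this pathway, was no part of this pattern. NQO1 had 738 to 757 RPM and 1847 and 1885 RPM in KYSE180, 945 and 989 RPM in TE6, and 900 and 823 RPM in KYSE150, and no pair was called. The AKR1C genes share long stretches of sequence, so their separate levels are uncertain.

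Interferon-response genes were low in KYSE150 in 7 of the 21 that passed the filter (33.3%, beside 11.7% of all genes). BST2, tetherin, had 208 to 302 RPM and 542 and 547 RPM in the KYSE180 sets, 639 and 557 RPM in TE6 and 0.173 and 0.239 RPM in KYSE150. IFI44 had 55.2 to 88.9 RPM in KYSE180, 65.1 and 67.7 RPM in TE6 and 0.259 and 0.875 RPM in KYSE150. IFI6 had 247 to 288 RPM, 40.6 and 45.2 RPM, 44.3 and 33.9 RPM, and 1.73 and 1.43 RPM in the same order. IFI27 stood out in TE6 at 571 and 489 RPM, against 1.91 to 24.6 RPM in KYSE180. The 2 KYSE180 sets were at least 1 apart for 14 of the interferon-response genes. In KYSE180, 3 (14.3%) were called higher and 3 (14.3%) lower than in TE6, beside 10.3% and 8.15% of all genes.

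Of 21 growth factor and receptor genes, 12 had a KYSE180 gap of at least 1. FGFR3 had 147 and 139 RPM in TE6, 37.1 to 49.3 RPM in KYSE180 and 16.0 and 18.6 RPM in KYSE150. With KYSE150 cont (20.4 to 28.8 RPM) its call against KYSE180 was lost. FGFR1 had 18.8 and 17.6 RPM in TE6, 5.39 to 21.7 RPM in KYSE180 and 0.0865 and 0.796 RPM in KYSE150. EGF, the ligand of EGFR, was seen in TE6 at 35.7 and 35.4 RPM, with at most 3.19 RPM in KYSE180 and no read in KYSE150. TGFB2, a transforming growth factor, was high in KYSE150 at 29.1 and 36.3 RPM against at most 4.18 RPM. Markers of other cell types were nearly absent. Summed levels were 29.3 to 56.5 RPM for 8 immune markers, nearly all from CD68, 0.875 to 5.9 RPM for 6 endothelial and 1.67 to 29.4 RPM for 7 neuroendocrine markers, and PTPRC and PECAM1 were at or below 0.357 RPM. The highest neuroendocrine value was that of CHGB, chromogranin B, in TE6 at 24.7 and 19.6 RPM. VWF was at most 5.83 RPM.

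By the rule for named genes, taken over all genes whether listed or not, those that set KYSE180 apart by the widest distance included TCHH, trichohyalin (99.9 to 179 RPM, at most 0.159 RPM elsewhere), CCDC8 (120 to 140 RPM), GTSF1, a germ-cell factor of the piRNA pathway (77.3 to 156 RPM), and CTAG2. ECI2, an enzyme of fatty acid oxidation, had 0.178 to 0.406 RPM in KYSE180 and 46.5 to 95.5 RPM in the others, and RAB17, a small GTPase, at most 0.273 RPM against 15.7 to 63.3 RPM. RPS28, a ribosomal protein gene with many processed copies, had 1.54 to 3.04 RPM against 57.4 to 140 RPM, which is uncertain for that reason. TE6 was led by HCLS1, a hematopoietic actin regulator (251 and 239 RPM, at most 0.818 RPM elsewhere), PEG10 (510 and 552 RPM, at most 9.68 RPM), IFI27, GSTM1, a glutathione transferase (120 and 102 RPM, at most 1.74 RPM), and STRA6, a retinol transporter (53.7 and 52.9 RPM).

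The reverse pattern in TE6 was led by a chaperone. HSPB1 (chr7:76302673-76304295, plus strand), the small heat shock protein HSP27, had 928, 958 and 974 RPM and 2206 and 2285 RPM in the KYSE180 sets and 1627 and 834 RPM in KYSE150, but 0.777 and 0.843 RPM in TE6. MANF, a protein of endoplasmic reticulum stress, had 0.155 and 0.0766 RPM in TE6 and 84.9 to 140 RPM elsewhere. ALDH7A1, an enzyme of lysine breakdown, had no read in TE6 and 63.8 to 105 RPM elsewhere, at least 274-fold higher. In KYSE150, ANKRD2, a stress-responsive ankyrin-repeat gene first known from muscle, had 818 and 560 RPM, but 119 to 159 RPM in cont, and TGM2, tissue transglutaminase, had 435 and 619 RPM with 593 to 724 RPM in cont. KRT19, AKR1C1 and UBB led the genes low in KYSE150. UBB (chr17:16380798-16382745, plus strand), which encodes polyubiquitin B, had 608, 601 and 564 RPM and 1253 and 1078 RPM in KYSE180, 1299 and 1304 RPM in TE6, but 0.692 and 0.637 RPM in KYSE150 and 1.34 to 1.58 RPM in KYSE150 cont.

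Near absence was counted as at most 3 reads in every library of a line with at least 10 RPM in every library of another. By this measure 46 genes were near absent in KYSE180, 83 in TE6 and 442 in KYSE150, of which 159 were present in both other lines and 300 had at most 3 reads in each KYSE150 cont library as well. Near absence had to hold in both KYSE180 sets but in only 2 libraries of TE6 or of KYSE150, so these counts cannot be compared directly between lines. KYSE150 siCont libraries also had reads for fewer genes (15638 and 15314) than KYSE150 cont (16539 to 17043). The 9819 protein-coding genes with at least 10 RPM in every library of some line were taken in chromosomal order, leaving out weaker genes between them. Of these, 39 were near absent in KYSE180, 73 in TE6 and 416 in KYSE150. Besides the 2 stretches with CDKN2A, 8 runs of at least 3 successive genes in this order were near absent in a line. The longest held 6 genes each in KYSE150, from ZFP14 to ZNF420 on chromosome 19 (chr19:36334453-37130368), all zinc finger genes, and from ARMCX6 to WBP5 on the X chromosome (chrX:101615118-103358462), with BEX2 and TCEAL8 among them. HOXD11, HOXD10 and HOXD9 were a run in KYSE150, and MAGEA3, CSAG1 and MAGEA12 in TE6. ZNF600, ZNF160 and ZNF331 on chromosome 19 were a run in both KYSE180 and KYSE150.

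BRDT itself was raised in KYSE150, the line with its lowest level, which asked whether listed genes low in KYSE150 would move with it. Within the overexpression table, limma compared 3 BRDT-OE with 3 cont libraries over 12765 genes. BRDT had 8.13, 16 and 6.58 normalised counts in cont and 15871, 15927 and 17542 in BRDT-OE. Of the 73 listed genes low in KYSE150, 56 reached the minimum mean value of 10 and were tested, and 8 (14.3%) were called higher and 15 (26.8%) lower in BRDT-OE, beside 10.5% and 16% of all genes. The median of these genes was -0.09, beside 0.02 over all genes. One of the 8 was BRDT, and after scaling to equal upper quartiles the number called higher was 5. PTHLH rose from 386, 406 and 410 normalised counts to 1103, 1406 and 1042 (log2 fold change 1.55, SE 0.11, adjusted p = 5.3e-06), and CCND1 from 3946, 4551 and 3837 to 8467, 8862 and 8803 (1.09, SE 0.08, adjusted p = 5.7e-06). CCNE1, DSC3, FADD, KRT14 and KRT6A rose by 0.52 to 0.94, of which the call of FADD held in 9 of 13 settings. KRT14 went from 112 to 167 normalised counts to 189 to 220 (0.55, SE 0.15, adjusted p = 0.011), and this call held in 10 of 13 settings.

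Of the 7 interferon-response genes low in KYSE150, 5 were called lower in BRDT-OE. OASL, an antiviral oligoadenylate synthetase-like gene, fell from 975, 439 and 686 to 98, 88.8 and 94.2 normalised counts (log2 fold change -2.81, SE 0.23, adjusted p = 1.0e-05), and OAS1 (-2.38), IFI44 (-1.52), IFI6 (-1.0) and BST2 (-0.86) were the others, while DDX58 (-0.18) and IFI27 (-0.07) were not called. The call of BST2 held in 8 of 13 settings and that of S100A4 (-1.03) in 5. TP73, a paralog of p63 (-2.05), DSG3 (-1.08) and PRSS8 (-1.52) were also called lower, as were ACTA2, smooth muscle actin (-1.64), and COL1A1, a collagen chain (-0.90). KRT19 (-0.18, SE 0.31, adjusted p = 0.65), AKR1C1 (0.04, SE 0.19, adjusted p = 0.86), GPX2 (0.04, SE 0.28, adjusted p = 0.91) and KRT13 (0.31, SE 0.26, adjusted p = 0.33) were not called, and all 4 had mean values of at most 46.1 in either group. TP63 was not called either (-0.11, SE 0.09, adjusted p = 0.33). Of the 27 listed genes high in KYSE150, all tested, 4 (14.8%) were called higher and 6 (22.2%) lower, beside 10.5% and 16% of all genes. The median of the 27 was 0.15, beside 0.02 over all genes. Those higher included FN1 (0.84) and AXL (0.52, a call that held in 9 of 13 settings). Those lower included CLDN4 (-1.11), CDKN2B (-1.36) and CDKN2A (-0.64).

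**Figure D5:**
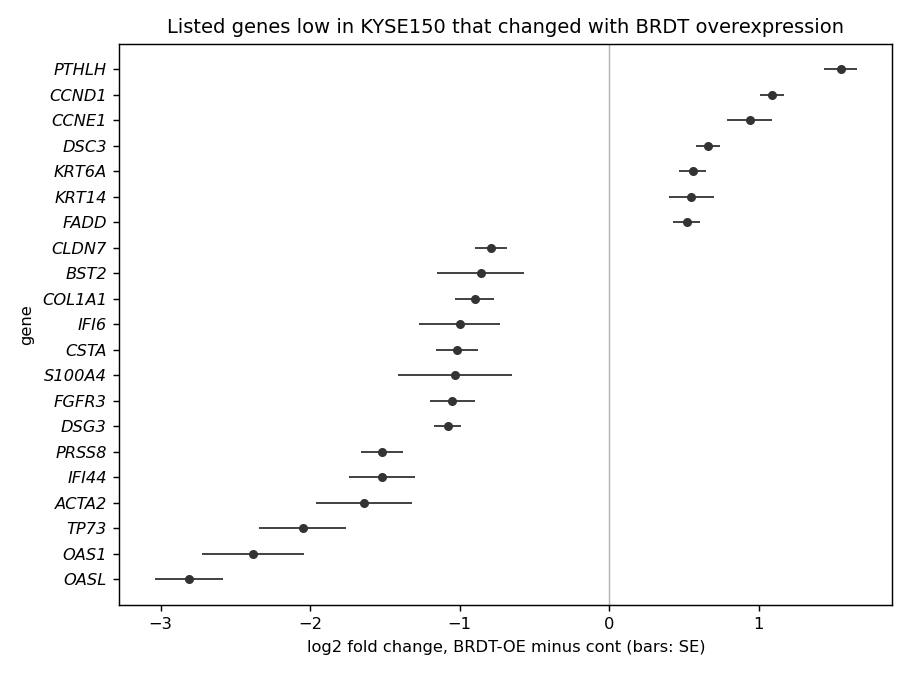
Log2 fold change of BRDT-OE minus cont (x axis, bars show the SE of the limma fit, n = 3 and 3) for the listed genes low in KYSE150 that passed the threshold, without BRDT itself and without genes not reported here (y axis). The points reach from -2.81 for OASL to 1.55 for PTHLH.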

How the data were processed

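RNA-seq of 3 ESCC cell lines was analysed from 5 tables of 26485 gene symbols, 1 per experiment. Per the study's methods and the submitters' processing notes, reads were mapped to hg38 with STAR (2.6.0), counted per gene with HTSeq (0.11.2) and normalised with DESeq2 (1.24.0), and the strand setting is not given in the sources used here. As deposited, each value is a normalised signal, that is, a read count over a size factor that was set within its own table. All values came out as whole multiples of 1 read (tolerance 0.01), so reads were recovered.

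Each column was rescaled to RPM of its own sum. KYSE180 is the mean of its 2 set means. Line differences have no test because tables were normalised separately. BRDT-OE was fitted against cont with limma (3.58.1, R 4.3.3, trend = TRUE) on log2(value + 1), for genes with a mean value of 10 or more. A call needed an adjusted p-value (Benjamini-Hochberg) below 0.05 and a change of 0.5 or more on the log2 scale. edgeR (4.0.16) and DESeq2 (1.42.0) on recovered reads were alternatives. These p-values measure only the spread between the libraries. The call rule and the limma fit were run on simulated data. The simulated tables for the call rule differed less than the KYSE180 sets and without regard to transcript length. That run therefore cannot show how the rule performs with the gaps seen here. Python 3.11.15, numpy 2.4.6, pandas 2.3.3, patsy 1.0.2 and matplotlib 3.10.9 were used.

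Genes named in the text are 25 lineage genes, up to 4 genes per list with the largest called difference, and per line the 5 high and 3 low genes with the widest distance and at least 50 RPM. A few further genes (neighbors of CDKN2A, members of runs, and genes called in BRDT-OE) were named after their values were seen. Members and lists were chosen with earlier results of these data known. Transcript lengths, positions and GC content are those of GENCODE 44 (hg38), which matched 92.7% of symbols. The siRNA sequence is from the study's supplement. Some genes that the rule or the calls would name are counted but not reported here.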

Additional observations from a re-analysis of the deposited data

How the results depend on the processing

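Between lines, the counts of genes apart were 2453 for KYSE180 and TE6, 3688 for KYSE180 and KYSE150 and 4361 for TE6 and KYSE150, with 4520 high or low classifications in a single line, and 1287 genes apart between the 2 KYSE150 control sets. Requiring each gene's own gap alone gave 5166, 6358, 6853, 9968 and 4440, and the 95th percentile of all gaps as yardstick gave 649, 1378, 1652, 1431 and 131. Under the other settings that kept all libraries, the counts stayed within 1.5 times. Leaving out 1 library gave 2421 to 2511, 3605 to 3944, 4224 to 4685, 4414 to 4759 and 859 to 2433, the last 2 values without KYSE150 siCont replicate 1 and replicate 2. Of 192 called differences of named genes, 150 were called under all 20 alternatives, 37 were ended by the 95th percentile and 17 by taking KYSE150 from cont, an alternative added after seeing the data. No difference that was called for a named gene turned its direction.

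For BRDT-OE, 8 listed genes low in KYSE150 were called higher, 5 after scaling to equal upper quartiles and 6 to 8 with 1 library left out. With the replicate number as a block the count was 8 higher and 14 lower, but same-numbered libraries did not deviate together (correlations of 0.0147 to 0.0979), so the samples share only a number. The 2-library sets limit every comparison between lines, and genes below 0.33 RPM are not resolved from 0.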
